A study of Homo sapiens with 2 samples.

Results

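The G2/M and mitosis genes described here are 47 genes whose products carry a cell through G2 phase and chromosome segregation. They were taken by symbol from a single-cell count matrix of 33694 genes, in which each of the 47 symbols had 1 row. Together they held 0.429% of all gene UMIs (unique molecular identifiers, which count captured transcripts) in the assigned cells. By role they comprised 6 genes of the cyclin B kinase and its regulators, 6 other mitotic kinases and 3 genes tied to the anaphase-promoting complex. A further 8 act at centromeres and kinetochores, 12 on the spindle and microtubules, 4 in cytokinesis, 6 in chromosome structure and 2 in the nuclear envelope.

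The cells were HMLER, human mammary epithelial cells that were immortalised and transformed with RAS, and C1 is a stably epithelial population derived from them. C1 cells were gene-edited into C1-sgControl, C1-sgEED and C1-sgKMT2D. The EED protein belongs to the H3K27 methyltransferase complex PRC2, and KMT2D is an H3K4 methyltransferase. The submitters describe a gain of epithelial-to-mesenchymal plasticity after either knockout. All lines shared the C1 origin, the growth medium, and 1 pooled 10x Genomics 3' library in which hashtag antibodies marked the lines. The labels call the cells mixed clones and do not give the number of clones or guides. After filtering, C1-sgControl retained 1720 cells, C1-sgEED 2338 and C1-sgKMT2D 2348. Another 1934 cells carried hashtag 2, which the labels tie to no line. Each line was 1 sample, so no test between lines was possible, and intervals given below are 95% intervals that cover counting error only. The line, its clones and its hashtag cannot be told apart.

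Cyclin B1 or B2 bound to CDK1 drives entry into mitosis, Polo and Aurora kinases order the later steps, and CDC20 turns the anaphase-promoting complex on cyclin B and securin. Transcripts of these genes accumulate in G2 and M phase. Many of their promoters are repressed outside these phases by the DREAM complex at a CHR element (cell cycle genes homology region), and are activated through CCAAT boxes bound by NF-Y.

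Promoter sequences are shown for 5 members because they hold both elements and because these genes mark the kinase and its exit switch, or, for PLK1, depart from the other members in the results. Each line gives the 150 bases that end just before the RefSeq start site, 5′ to 3′ on the gene's strand, from the RefSeq promoter table of GRCh38.p14. Capitals mark CHR matches (TTTGAA or TTTAAA) and CCAAT matches on either strand. An upstream GENCODE transcript can overlap such a stretch.
CCNB1: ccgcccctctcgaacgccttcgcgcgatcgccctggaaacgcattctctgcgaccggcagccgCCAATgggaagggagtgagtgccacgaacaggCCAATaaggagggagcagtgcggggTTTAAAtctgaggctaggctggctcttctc
CCNB2: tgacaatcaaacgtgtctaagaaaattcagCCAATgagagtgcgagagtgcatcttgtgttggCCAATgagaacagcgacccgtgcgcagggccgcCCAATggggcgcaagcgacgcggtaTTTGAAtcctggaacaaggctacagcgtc
CDC20: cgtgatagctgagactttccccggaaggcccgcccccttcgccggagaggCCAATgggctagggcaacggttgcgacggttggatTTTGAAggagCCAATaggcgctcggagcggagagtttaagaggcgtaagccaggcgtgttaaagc
CKS2: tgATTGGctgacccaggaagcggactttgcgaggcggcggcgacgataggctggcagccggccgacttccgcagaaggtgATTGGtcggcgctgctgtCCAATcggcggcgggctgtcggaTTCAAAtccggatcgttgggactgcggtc
PLK1: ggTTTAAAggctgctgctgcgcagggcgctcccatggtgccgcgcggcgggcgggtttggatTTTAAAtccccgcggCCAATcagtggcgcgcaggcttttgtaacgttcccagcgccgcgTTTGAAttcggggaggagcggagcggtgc
These stretches lie on the plus strand at chr5:69167000-69167149 (CCNB1), chr15:59104996-59105145 (CCNB2), chr1:43358831-43358980 (CDC20), chr9:89311045-89311194 (CKS2) and chr16:23678739-23678888 (PLK1). In CCNB1, CCNB2, CKS2 and PLK1 a CHR match began 29 or 30 bases before the start site, and in CDC20 it began 65 bases before it. CCNB2 and CKS2 each held 3 CCAAT matches in the stretch shown, CCNB1 and CDC20 held 2, and PLK1 held 1.

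The table matched 40 of the 47 members, without HMGB2, UBE2C, BIRC5, TPX2, AURKA, ANP32E and TTK. Each entry spans 300 bases, from 250 before to 50 after the start site. A CHR match, TTTGAA or TTTAAA on either strand, was present in 33 of 40 member promoters (82.5%) and in 24.0% of all 35114 promoters. TTTAAA is its own reverse complement and was counted once. A CCAAT match on either strand was present in 30 of 40 (75%), against 34.6% of all promoters. Both occurred in 26 (65.0%) against 9.27%, and 22 (55%) had 2 or more CCAAT matches against 10.8%. The E2F-type site TTCCCGC, searched on both strands and linked to G1/S genes, was in 3 member promoters (7.5%) against 6.55% of all. A CHR match that began 35 to 15 bases before the start site, a window chosen after the positions were seen, occurred in 12 member promoters (30.0%) and in 2.62% of all promoters. No CHR match lay anywhere in the 300 bases of AURKB, BUB1, CDC25C, CKAP2, NEK2, PSRC1 or TACC3. A match is a stretch of letters and does not show that a factor binds there.

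**Figure D1:**
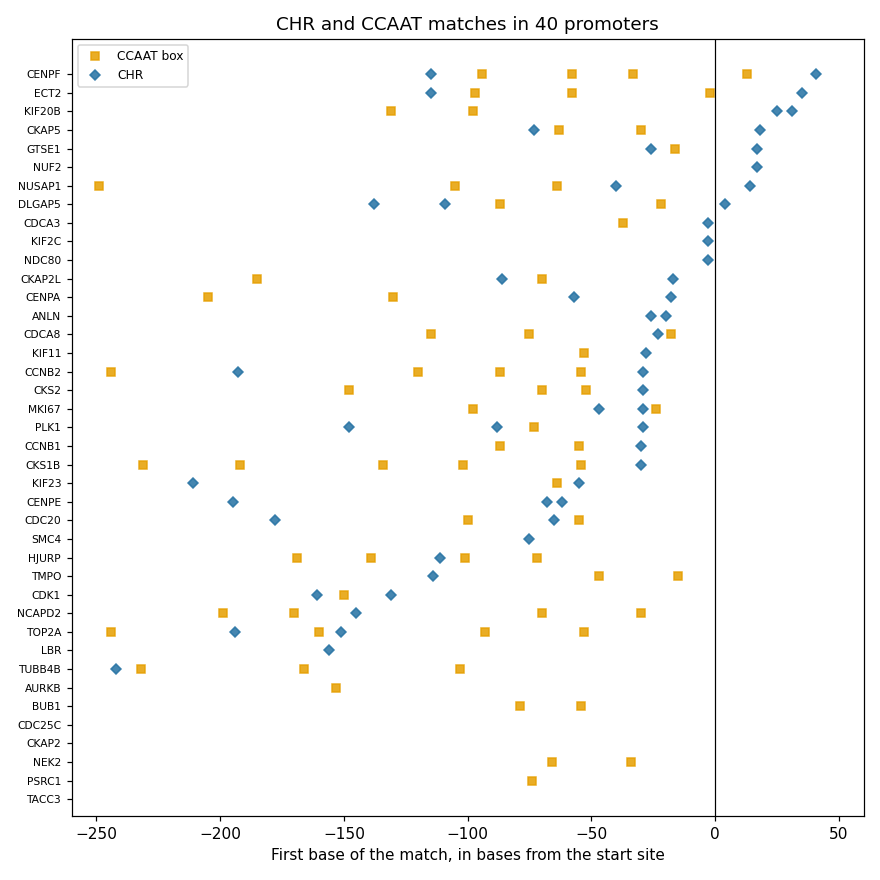
Positions of CHR matches (diamonds) and CCAAT matches (squares) in the 40 matched promoters, as the distance of the first base from the RefSeq start site (vertical line). Rows are ordered by the CHR match that lies farthest downstream, and 12 promoters have one between 35 and 15 bases before the start.

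Depth and cell state set the frame for every value below. Gene UMIs per line ranged from 9927122 in C1-sgControl to 13957344 in C1-sgKMT2D, with medians per cell of 5673 in C1-sgControl, 5526 in C1-sgKMT2D and 3915 in C1-sgEED. A cell was called KRT17-rich where UMIs of the basal keratin KRT17 exceeded those of the intermediate filament gene VIM, and VIM-rich in the reverse case. This gave 1633 KRT17-rich and 71 VIM-rich cells in C1-sgControl, 1111 and 1195 in C1-sgEED, and 1157 and 1164 in C1-sgKMT2D. The 12 epithelial markers summed to 16517 CPM (UMIs in 1000000 gene UMIs) in KRT17-rich and 7207 CPM in VIM-rich C1-sgControl cells. The same sums were 15039 and 2859 CPM in C1-sgEED and 19296 and 3523 CPM in C1-sgKMT2D. The 10 mesenchymal markers summed to 3770 and 4356 CPM in the KRT17-rich and VIM-rich cells of C1-sgControl, 3340 and 11030 CPM in those of C1-sgEED, and 4256 and 7649 CPM in those of C1-sgKMT2D. The lists include KRT17 and VIM, which set the classes, so the rule itself fixes part of each difference. In KRT17-rich and VIM-rich C1-sgControl cells KRT17 was at 7559 and 1365 CPM, and VIM at 1106 and 2061 CPM. VIM thus rose by more than the whole mesenchymal sum of C1-sgControl. That sum in VIM-rich C1-sgControl cells was below the sums in VIM-rich cells of the other lines. Immune and endothelial lists of 5 genes each summed to at most 1.66 CPM in any line, with PTPRC and CDH5 at 0. The 5 neural markers summed to 0.788 to 8.29 CPM, almost all MAP2, with SOX10 at 0. EED transcripts stood at 13.6, 13.4 and 15.3 CPM and KMT2D transcripts at 4.63, 3.02 and 5.02 CPM in C1-sgControl, C1-sgEED and C1-sgKMT2D. The C1-sgEED value hides a split, with EED at 20.1 CPM in its KRT17-rich and 5.74 CPM in its VIM-rich cells. In C1-sgControl these classes had 13.4 and 16.9 CPM of EED. KMT2D was at 4.23 and 1.70 CPM in the KRT17-rich and VIM-rich cells of C1-sgEED. Whether both classes of a line carry the same edits was not tested. A 3' count does not read an edited site, so these levels do not check the knockouts.

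The 47 genes together took a larger share of UMIs in both knockout lines than in the control line. Their summed level was 2924 CPM (2890 to 2957) for C1-sgControl, 5334 CPM (5289 to 5379) for C1-sgEED and 4489 CPM (4453 to 4524) for C1-sgKMT2D. C1-sgEED was highest and C1-sgKMT2D was between. These intervals treat UMIs as independent and do not cover the spread between cells, which was wider than Poisson. The ratio to C1-sgControl was 1.82 (1.80 to 1.85) for C1-sgEED and 1.54 (1.51 to 1.56) for C1-sgKMT2D. In C1-sgEED 39 of the 47 members were at least 1.5-fold higher than in C1-sgControl and 0 were at least 1.5-fold lower. Of all 7894 genes measured in that comparison, meaning at least 10 CPM in either group, 11.6% were higher by this bound and 8.87% lower. In C1-sgKMT2D, 31 of 46 measured members were at least 1.5-fold higher and 0 lower, against 7.72% higher and 14.5% lower of 7680 genes. CDC25C, a phosphatase that activates CDK1, stayed below 10 CPM in both C1-sgControl and C1-sgKMT2D. The median member log2 ratio was 0.86 for C1-sgEED and 0.68 for C1-sgKMT2D, where the medians of all genes were 0.09 and -0.02. Both comparisons share the C1-sgControl cells.

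**Figure D2:**
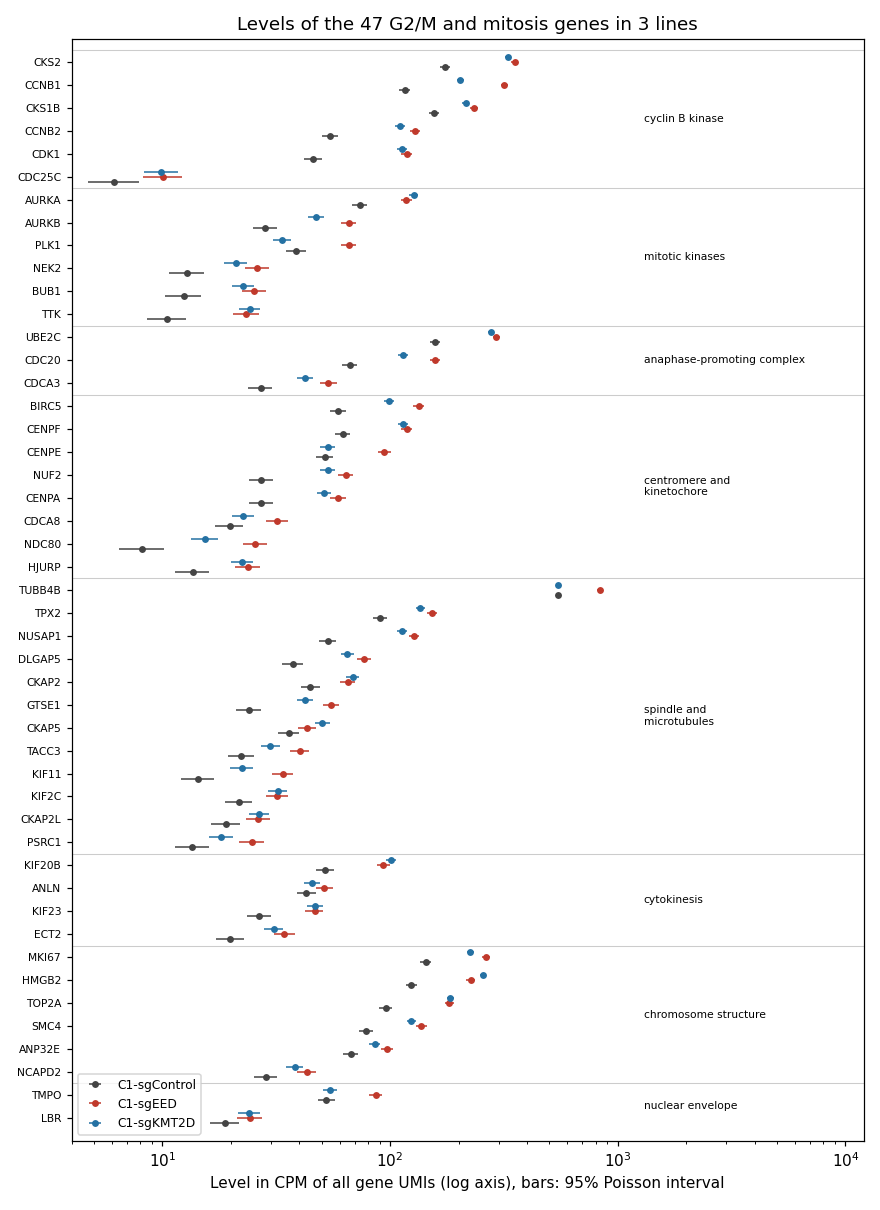
Level of each of the 47 genes in CPM (log axis) in C1-sgControl, C1-sgEED and C1-sgKMT2D, grouped by role, with 95% Poisson intervals. All 47 points of C1-sgEED lie to the right of C1-sgControl, and PLK1 and TUBB4B are the members whose C1-sgKMT2D point does not.

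Among the cyclin B kinase genes, CCNB1 (cyclin B1) stood at 116 CPM for C1-sgControl, 317 CPM for C1-sgEED and 204 CPM for C1-sgKMT2D. Its ratio to control was thus 2.73 (2.55 to 2.92) in C1-sgEED and 1.75 (1.64 to 1.88) in C1-sgKMT2D. CDK1, the catalytic subunit, had levels of 45.9, 118 and 113 CPM in the same order, with ratios of 2.57 (2.31 to 2.87) and 2.46 (2.21 to 2.73). CDK1 was therefore at nearly the same level in both knockout lines, whereas CCNB1 was highest in C1-sgEED. CCNB2 (cyclin B2) was at 54.5, 129 and 110 CPM. CKS2, a small subunit bound by CDK1, was at 174, 353 and 329 CPM, and its relative CKS1B at 156, 234 and 215 CPM. Near-identical gene copies exist for CKS1B, HMGB2 and the tubulin genes, so levels assigned to these members are less certain.

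All 6 mitotic kinases were past the 1.5-fold bound in C1-sgEED, and 5 of 6 in C1-sgKMT2D. Of all measured genes, 11.6% and 7.72% were higher by this bound. AURKA, the spindle pole Aurora kinase, had 73.5 CPM for C1-sgControl, 118 CPM for C1-sgEED and 127 CPM for C1-sgKMT2D. AURKB, the Aurora kinase of the chromosomal passenger complex, had 28.3, 66.0 and 47.4 CPM. TTK and BUB1, kinases of the spindle checkpoint, were at 10.5, 23.3 and 24.2 CPM and at 12.4, 25.2 and 22.6 CPM. The centrosomal kinase NEK2 was at 12.8, 26.1 and 21.0 CPM. PLK1, the Polo kinase of mitotic entry and exit, was the exception at 38.8, 65.8 and 33.5 CPM. Its C1-sgKMT2D level was 0.865 (0.754 to 0.992) of C1-sgControl, the lowest ratio of any member in that comparison. PLK1 was the 1 member on chromosome 16, whose 317 measured genes had a median log2 ratio of -0.66 in C1-sgKMT2D over C1-sgControl, against -0.01 for genes elsewhere. Of those chromosome 16 genes, 95.3% were lower in C1-sgKMT2D, while the C1-sgEED median for chromosome 16 was 0.02. The part of the chromosome in the PLK1 level was not tested.

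The 3 genes tied to the anaphase-promoting complex were at least 1.5-fold higher in both knockout lines. CDC20, its mitotic activator, was at 66.5, 158 and 114 CPM in C1-sgControl, C1-sgEED and C1-sgKMT2D. The ubiquitin-conjugating enzyme UBE2C was at 157, 293 and 278 CPM, and CDCA3 at 27.0, 53.5 and 42.3 CPM. At centromeres and kinetochores, 8 of 8 members were past the bound in C1-sgEED and 6 of 8 in C1-sgKMT2D. The shares of all measured genes were 11.6% and 7.72%. NDC80, which binds kinetochores to microtubules, had the highest C1-sgEED ratio of all members, 3.13 (2.43 to 4.07), from 8.16 CPM in C1-sgControl and 25.5 CPM in C1-sgEED. Its level in C1-sgKMT2D was 15.3 CPM. The survivin gene BIRC5 was at 59.3, 134 and 98.9 CPM and the centromeric histone gene CENPA at 27.1, 59.2 and 51.2 CPM. The members not past the bound in C1-sgKMT2D were CENPE, a kinetochore motor, at 51.6, 94.4 and 53.2 CPM, and CDCA8 at 19.7, 32.0 and 22.7 CPM.

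Spindle and microtubule genes summed to 1.63 times the control level in C1-sgEED, with 8 of 12 members past the bound. In C1-sgKMT2D they summed to 1.24 times, with 6 of 12. The shares of all measured genes were 11.6% and 7.72%. TUBB4B, a beta-tubulin that is also used outside mitosis, had 549, 832 and 548 CPM, so that its C1-sgKMT2D ratio was 0.998 (0.964 to 1.03). It made up much of the spindle sum, and the other 11 genes had summed ratios of 1.80 (1.73 to 1.87) in C1-sgEED and 1.61 (1.54 to 1.67) in C1-sgKMT2D. NUSAP1, which bundles spindle microtubules, had 53.3, 127 and 113 CPM. KIF11, the motor that separates spindle poles, had 14.3, 33.7 and 22.3 CPM. In cytokinesis, KIF20B, KIF23 and ECT2 were past the bound in both knockout lines. ANLN, which scaffolds the contractile ring, was at 42.9, 51.4 and 45.4 CPM, the lowest C1-sgEED ratio at 1.20 (1.05 to 1.36). Among chromosome structure genes, TOP2A (topoisomerase II alpha) was at 95.7, 182 and 184 CPM and MKI67, the Ki-67 gene, at 143 CPM, 264 CPM and 225 CPM. HMGB2, a DNA-bending protein, was higher in C1-sgKMT2D (256 CPM) than in C1-sgEED (226 CPM) or C1-sgControl (124 CPM). The nuclear envelope genes TMPO and LBR had ratios of 1.65 and 1.28 in C1-sgEED and 1.04 and 1.27 in C1-sgKMT2D.

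Set directly against each other, C1-sgKMT2D had a summed level 0.842 (0.832 to 0.851) of that in C1-sgEED. Here 7 of 47 members were at least 1.5-fold lower and 0 higher, against 14.0% lower and 3.42% higher of 7738 genes, so the members' share of 7 lay close to the background. The 7 were PLK1 at 0.510, CENPE at 0.564, NDC80 at 0.600, TMPO at 0.630, CCNB1 at 0.642, TUBB4B at 0.659 and KIF11 at 0.661 of the C1-sgEED level.

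The difference from control was also present among KRT17-rich cells, where both knockout lines were compared with control cells of the same class. The class did not match VIM between lines, at 1106 CPM for C1-sgControl, 1163 CPM for C1-sgEED and 2728 CPM for C1-sgKMT2D. VIM-rich C1-sgControl cells had 2061 CPM of VIM. The part of this VIM level in the ratios below was not tested. The summed level in KRT17-rich cells was 2754 CPM (2721 to 2788) for C1-sgControl, 4141 CPM (4087 to 4196) for C1-sgEED and 3947 CPM (3903 to 3991) for C1-sgKMT2D. The ratios were 1.504 (1.48 to 1.53) and 1.43 (1.41 to 1.46). In KRT17-rich C1-sgEED cells 26 of 46 measured members were at least 1.5-fold higher and 0 lower, against 8.18% and 5.31% of all genes. In KRT17-rich C1-sgKMT2D cells 24 of 46 were higher and 0 lower, against 6.56% and 13.9% of all genes. CCNB2 had the highest ratio in C1-sgEED, 2.43, at 49.9 CPM in control and 122 CPM in C1-sgEED. CDK1 had the highest in C1-sgKMT2D, 2.55, at 42.5 and 108 CPM. The summed ratios differed between roles. The cyclin B kinase, mitotic kinase and anaphase-promoting complex groups had summed ratios of 1.90, 1.75 and 1.76 in KRT17-rich C1-sgEED cells, whereas the 2 nuclear envelope genes had 1.03 (0.906 to 1.17). Spindle genes had 1.22 (1.18 to 1.26) with TUBB4B and 1.42 (1.35 to 1.495) without it, beside 1.43 for chromosome structure genes. In KRT17-rich C1-sgKMT2D cells the spindle ratio was 1.14 (1.11 to 1.18) with TUBB4B and 1.48 (1.41 to 1.54) without it, and the nuclear envelope ratio was 1.01 (0.896 to 1.13). Between these KRT17-rich classes, C1-sgKMT2D over C1-sgEED, 1 of 46 members was lower (PLK1, 0.545) and 0 were higher, against 13.5% and 2.47% of all genes.

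Within each line the VIM-rich cells had more of these transcripts than the KRT17-rich cells. The summed level was 6698 CPM in VIM-rich C1-sgEED cells, 1.62 (1.59 to 1.65) times the KRT17-rich level. In VIM-rich C1-sgKMT2D cells it was 5197 CPM, a ratio of 1.32 (1.30 to 1.34), and in the 71 VIM-rich C1-sgControl cells it was 6060 CPM, a ratio of 2.20 (2.11 to 2.29). In C1-sgEED 28 of 47 members were at least 1.5-fold higher in VIM-rich cells and 0 lower, against 13.4% and 14.9% of all genes. In C1-sgKMT2D 7 of 47 were higher and 0 lower, against 7.55% and 7.32%. The C1-sgControl counts were 42 of 47 higher and 0 lower, against 17.3% and 10.1%. The 7 in C1-sgKMT2D were CDC25C, HMGB2, NUSAP1, CENPF, CENPA, KIF2C and KIF11, with ratios from 1.54 to 1.79. In hashtag 2 cells 17 of 46 measured members were higher in the VIM-rich class and 0 lower, against 6.05% and 7.35%. The C1-sgKMT2D count depended on the split. It was 35 when only cells with a VIM share under 0.2 or over 0.8 entered. It was 1 when the summed marker lists, which include KRT17 and VIM, set the classes. No share of all genes is given under these splits, so both counts have no background. In C1-sgEED GTSE1, a microtubule-associated G2 gene, was at 30.7 CPM in KRT17-rich and 82.1 CPM in VIM-rich cells, and TMPO at 54.5 and 124 CPM. CKS1B went the other way, at 245 and 217 CPM. VIM-rich cells of the 2 knockout lines also differed in the summed level, where C1-sgKMT2D had 0.776 (0.764 to 0.788) of the C1-sgEED level. Here 12 of 47 members were at least 1.5-fold lower and 0 higher, against 19.3% and 9.53% of all genes. The lowest were NDC80 at 0.472, PLK1 at 0.476, TMPO at 0.494 and CENPE at 0.499. The share of lower members lay not far above the background, and median log2 ratios were -0.23 for members and -0.12 for all genes.

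**Figure D3:**
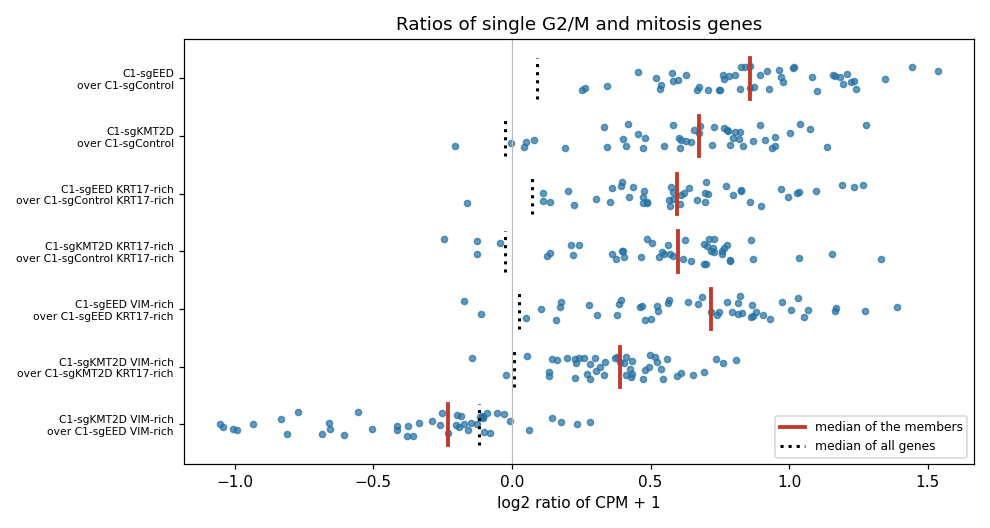
Log2 ratios of CPM + 1 for each measured member in 7 comparisons (points), with the median of the members (solid line) and of all measured genes (dotted line). Members lie mostly right of 0 in the upper 6 comparisons and mostly left of it in VIM-rich C1-sgKMT2D over VIM-rich C1-sgEED cells.

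KRT17 itself differed between cells rich and poor in the mitosis genes. Each cell was thinned at random to 2000 UMIs, and cells with at least 20 UMIs of the 47 genes, 1% of the total, are called member-rich. In C1-sgControl, member-rich cells had 2959 CPM of KRT17 and the remaining cells 7699 CPM, while VIM was at 1063 and 1159 CPM. KRT17 stood at 2044 against 4425 CPM in C1-sgEED and at 3473 against 6818 CPM in C1-sgKMT2D. In C1-sgControl 12.2% (6.99 to 19.3) of 123 member-rich cells and 3.24% (2.41 to 4.26) of 1513 other cells were called VIM-rich. In C1-sgEED these shares were 64.4% (59.5 to 69.03) and 46.9% (44.6 to 49.3). In C1-sgKMT2D they were 55.3% (49.4 to 61.1) and 48.2% (45.98 to 50.5), with intervals that overlapped. VIM-rich cells were also shallower in both knockout lines, with medians of 3478 against 4403 UMIs in C1-sgEED and 4520 against 6716 UMIs in C1-sgKMT2D. The part of either in the differences between VIM-rich and KRT17-rich cells was not tested.

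The per-cell counts show how the summed levels arose. Thinning left out cells below 2000 UMIs, 84 of them from C1-sgControl, 167 from C1-sgEED and 114 from C1-sgKMT2D. Member-rich cells made up 7.52% (6.29 to 8.90) of 1636 C1-sgControl cells, 18.6% (17.0 to 20.3) of 2171 C1-sgEED cells and 13.0% (11.7 to 14.5) of 2234 C1-sgKMT2D cells, with exact Clopper-Pearson intervals. Unthinned, over all kept cells including those below 2000 UMIs, the shares were 7.21%, 17.5% and 12.4%. Member-rich cells were deeper than the rest before thinning. Their medians were 6876 against 5740 UMIs in C1-sgControl, 4631.5 against 3957 in C1-sgEED and 7427 against 5524 in C1-sgKMT2D. The part of depth in the summed levels was not tested. The class is a range of a score and not a cell type, and 37, 104 and 65 cells lay within 2 UMIs of the bound. Among KRT17-rich cells the shares were 6.74% (5.54 to 8.10) in C1-sgControl, 11.2% (9.42 to 13.2) in C1-sgKMT2D and 13.3% (11.3 to 15.5) in C1-sgEED. These shares depended on the split. When only cells with a VIM share under 0.2 entered, the C1-sgKMT2D share lay close to that of C1-sgControl, while the C1-sgEED share stayed above both. Among VIM-rich cells they were 23.4% (13.8 to 35.7) of 64 C1-sgControl cells, 23.9% (21.4 to 26.5) in C1-sgEED and 14.7% (12.6 to 16.9) in C1-sgKMT2D. In cells of at least 5000 UMIs, thinned to 5000 with the bound at the same 1%, the share was 37.1% of VIM-rich C1-sgEED and 23.4% of VIM-rich C1-sgKMT2D cells. No cell type known to lack these genes was present in the library, so the share that free RNA alone would give could not be measured.

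Member-rich cells carried similar mean numbers of member UMIs in each line, at 28.6 of 2000 in C1-sgControl, and at 30.0 in C1-sgEED and 32.8 in C1-sgKMT2D. The bound itself fixes part of this likeness. The remaining cells had means of 3.28, 5.60 and 3.90 in the same order. C1-sgEED therefore had both more cells above the bound and a higher level below it, and its median cell had 6 member UMIs, against 2 in C1-sgControl and 3 in C1-sgKMT2D. Member-rich cells held 41.4% of all member UMIs of C1-sgControl, 55.0% of those of C1-sgEED and 55.7% of those of C1-sgKMT2D. Variance over mean was 12.3 in C1-sgControl, 16.1 in C1-sgKMT2D and 12.2 in C1-sgEED, where a Poisson count would give 1. Cells with at least 40 member UMIs were 0.428% of C1-sgControl, 2.16% of C1-sgEED and 2.73% of C1-sgKMT2D cells. C1-sgKMT2D thus had fewer member-rich cells than C1-sgEED and a share of very rich cells close to it.

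**Figure D4:**
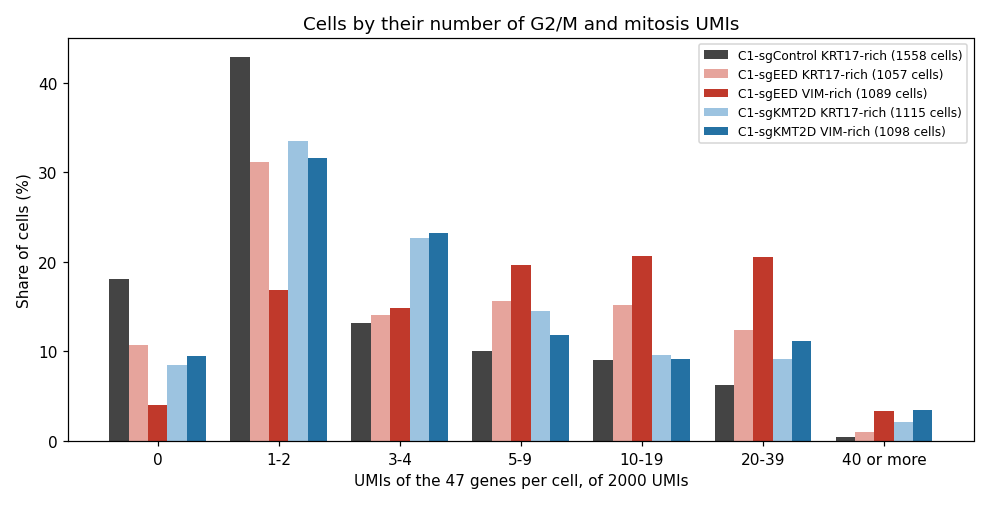
Share of thinned cells (%, bars) by the number of UMIs of the 47 genes among 2000, for KRT17-rich cells of C1-sgControl and both classes of the knockout lines. VIM-rich C1-sgEED cells have the fewest cells at 0 (4.04%), and KRT17-rich C1-sgControl cells the most (18.1%).

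Each member was also read in cells with at least 20 UMIs of the other 46 members, to see which members stood above or below the rest there. Because the cells of every line were chosen by the same bound on these genes, the typical level is largely set by the choice, and a median ratio near 1 is no result. That median over 47 genes was 1.02 for C1-sgEED over C1-sgControl. NDC80 at 1.82 (1.28 to 2.65) and CDK1, at 228 and 342 CPM, were the 2 members at least 1.5-fold higher, and 0 were as much lower. HJURP, the CENPA chaperone, had the lowest ratio, 0.675 (0.512 to 0.892). C1-sgKMT2D had a median ratio to control of 1.24, with 3 members higher and 2 lower by the bound. No share of all genes past the 1.5-fold bound is given for these cells, so the counts of either line have no background. CDK1 stood at 228 CPM in member-rich C1-sgControl cells and 437 CPM in those of C1-sgKMT2D, a ratio of 1.91 (1.65 to 2.24). TTK at 1.62 and CKS2 at 1.53 were the other members past it. PLK1 was at 258 and 151 CPM, 0.584 (0.493 to 0.694) of control, and CENPE at 346 and 223 CPM, 0.644 (0.558 to 0.744). TUBB4B was at 1839 CPM for C1-sgControl, 1834 CPM for C1-sgEED and 1783 CPM for C1-sgKMT2D member-rich cells. Direct ratios of C1-sgKMT2D to C1-sgEED in member-rich cells ran from 0.660 for CENPE and 0.661 for PLK1 to 1.55 for HMGB2. Against C1-sgEED, PLK1 and CENPE were thus the lowest members of C1-sgKMT2D both over all cells and within its member-rich cells. Against C1-sgControl this held within member-rich cells only, since CENPE over all cells was not below its control level.

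**Figure D5:**
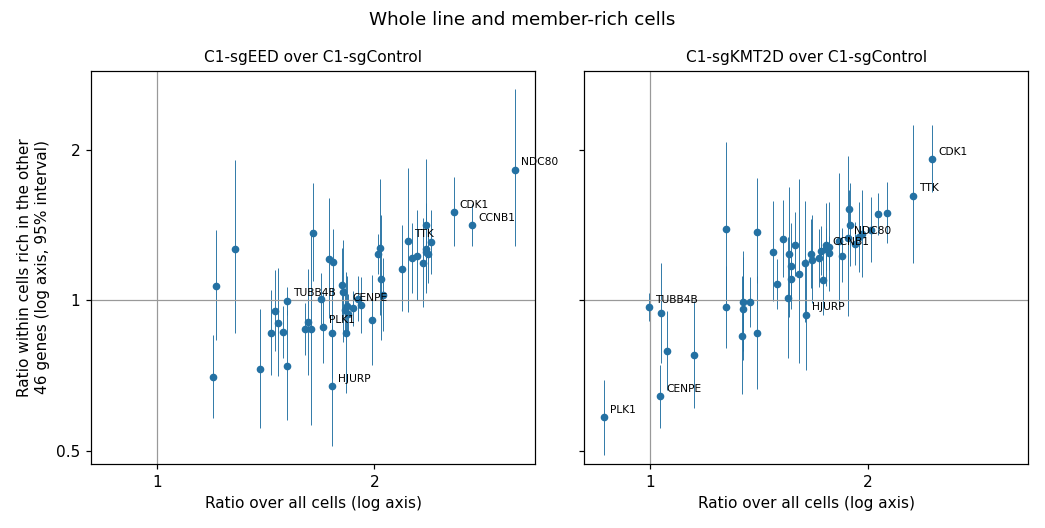
Ratio of each member to C1-sgControl over all cells (horizontal, log axis) and within cells with at least 20 UMIs of the other 46 members (vertical, log axis, 95% intervals). In C1-sgEED (left) the points scatter around a vertical ratio of 1, and in C1-sgKMT2D (right) PLK1 and CENPE lie lowest and CDK1 highest.

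Members differed in how strictly they followed the others from cell to cell. The level of a member in the 10% of cells richest in the other 46 was divided by its level in the remaining cells of the line. The median ratio over members was 10.1 in C1-sgControl, 7.40 in C1-sgKMT2D and 4.89 in C1-sgEED. These 10% are more than the member-rich share of C1-sgControl and only part of that of C1-sgEED, so the lines are not compared on this measure. A ratio of at least 5 was found for 40 of 47 members in C1-sgControl, 37 in C1-sgKMT2D and 21 in C1-sgEED. No share of all genes past this ratio is given, so these counts have no background. In C1-sgControl the highest ratio was that of HJURP. It was at 85.2 CPM in the top 10% and 4.16 CPM in the rest, a ratio of 20.5 (13.8 to 30.9). CENPE and PLK1 followed at 17.7 and 17.4, and AURKA had 16.8 in C1-sgControl and the highest ratio in both knockout lines, 7.03 and 12.8. The least concentrated were LBR at 2.27, TMPO at 2.99, ANP32E, a histone chaperone, at 3.22, CKAP5, a microtubule polymerase, at 3.40 and CKS1B at 3.91. ANP32E, CKS1B and TMPO were among the 4 lowest in both other lines. MKI67 stood at 704 CPM in the top 10% and 68.2 CPM in the rest of C1-sgControl.

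Genes outside the 47 were also compared between the 10% of cells richest in member UMIs over the 3 lines and the rest. They were ranked by the lower interval limit of this ratio, which places genes with few UMIs lower at the same ratio. The 10 highest were largely other mitotic genes. PIF1, a DNA helicase, had the highest place at 90.8 CPM in the top 10% and 4.88 CPM in the rest, a ratio of 18.6 (15.3 to 22.7). The other 9 were FAM83D, DEPDC1, ASPM, KIF20A, GAS2L3, HMMR, CCNF, INCENP and KIF14, with ratios from 8.66 to 11.8. Those 9 were all in a list of 71 other mitosis genes.

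That list of 71 other mitosis genes and a list of 42 G1/S genes give the wider pathway. In C1-sgEED 44 of 63 measured other mitosis genes were at least 1.5-fold higher than in C1-sgControl and 0 lower, and 19 of 36 G1/S genes were higher and 0 lower, where 11.6% of all measured genes were higher and 8.87% lower. In C1-sgKMT2D the counts were 29 higher and 2 lower of 64, and 9 higher and 0 lower of 34, where 7.72% of all genes were higher and 14.5% lower. Median log2 ratios were 0.77 and 0.60 for the lists in C1-sgEED, against 0.09 for all genes, and 0.50 and 0.34 in C1-sgKMT2D, against -0.02. The kinetochore gene ZWINT was at 22.9 CPM in C1-sgControl and 80.9 CPM in C1-sgEED, a ratio of 3.54 (3.05 to 4.12). CDC25B, a phosphatase that activates cyclin-dependent kinases, was at 62.4 CPM in C1-sgControl and 187 CPM in C1-sgKMT2D, a ratio of 3.00 (2.75 to 3.28). The 2 lower genes in C1-sgKMT2D were PKMYT1, a kinase that inhibits CDK1, at 0.528 (0.399 to 0.697), and ARL6IP1 at 0.623 (0.541 to 0.716). Both lie on chromosome 16, as PLK1 does. Of the G1/S genes, the flap endonuclease FEN1 had the highest ratio in C1-sgEED, 2.17 (1.90 to 2.48), and PRIM1, a DNA primase subunit, in C1-sgKMT2D, 1.87 (1.53 to 2.30).

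The cell filter touched the lines unequally. Of 2364 C1-sgControl barcodes with 1 hashtag, 603 were over the limit of 20% mitochondrial UMIs, against 146 of 2508 in C1-sgEED and 127 of 2495 in C1-sgKMT2D. Members summed to 1989 CPM in those C1-sgControl barcodes, 3262 CPM in those of C1-sgEED and 2945 CPM in those of C1-sgKMT2D, below the kept cells of the same line in each case. With no filter the summed ratios to C1-sgControl were 1.87 for C1-sgEED and 1.57 for C1-sgKMT2D.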

How the data were processed

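Hashtag-stained cells of the 3 lines were pooled in 1 10x Genomics 3' library, per the labels' protocols. Its UMI counts per gene and barcode, as deposited, were made by the authors on GRCh38, per the submitters' processing notes, and Cell Ranger 3.0.2 is named in the file headers. Which annotation version they used was not given in the sources used here. Counts were not corrected for free RNA here.

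Of 10336 barcodes, 1143 were removed for having fewer than 500 genes or more than 20% of UMIs from mitochondrial genes. A mixture model of 2 parts for each hashtag (scikit-learn 1.9.0) called hashtags. It found 827 barcodes with several hashtags and 26 with none, and both kinds were left out. Doublets within a hashtag stay in, about 282 (3.38% of cells) from the several-hashtag rate. Cells with as many KRT17 as VIM UMIs (16, 32 and 27 in C1-sgControl, C1-sgEED and C1-sgKMT2D) were in neither class.

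UMIs were summed per line and expressed as CPM over all genes. Ratios are of CPM with an exact conditional binomial interval, levels have exact Poisson intervals (scipy 1.17.1, 95%), and log2 ratios add a pseudocount of 1 CPM. A gene was measured where either group had at least 10 CPM. Thinning used 1 fixed random seed. The interval functions were tested on simulated Poisson counts, which have no added spread between cells. With 1 sample per line there is no p-value, and intervals do not cover differences between cultures or clones. Intervals of levels and ratios treat UMIs as independent and do not cover the spread between cells either.

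Members, roles and lists were chosen with earlier results of these data known. All 47 members could be named, with the 3 highest and 3 lowest of each list per comparison, the 10 most concentrated other genes, KRT17, VIM, EED and KMT2D. For 5 genes of the other mitosis list the matrix holds an older symbol. Coordinates and chromosomes are from GENCODE 29, GRCh38, matched by gene identifier. Alternatives were other cell filters, hashtag calls, totals, weights, depths, splits, bounds, minimum levels and pseudocounts. Leaving out chromosome 16, and TUBB4B from the spindle sum, were chosen after seeing the data.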

Additional observations from a re-analysis of the deposited data

How the results depend on the processing

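Both knockout lines kept a summed ratio above 1 to C1-sgControl, over all cells and in KRT17-rich cells, under every alternative run. The number of members at least 5-fold concentrated in the richest 10% of cells stayed within 1.5 times when the richest 20% was used. Leaving out chromosome 16 moved no count or ratio beyond its limit. The cause of each shift below was not tested. Because each line is 1 sample, leaving out a replicate was not possible, and no paired analysis was possible because the labels give no replicate numbers. For the member-rich share, another UMI total and a mean over cells were not run, since the share counts cells.

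Summed ratios moved beyond their counting interval in 51 of 73 cases and the direction never reversed. For C1-sgEED over C1-sgControl it was 1.87 without a cell filter, 1.89 with the strict cell filter, 1.78 with mitochondrial and ribosomal genes left out of the total, 1.92 with the mean over cells, 2.03 in cells thinned to 5000 UMIs, 2.00 without the 5% largest cells and 1.89 without the 3 most abundant members. For C1-sgKMT2D over C1-sgControl it was 1.57 without a cell filter, 1.63 with the strict cell filter, 1.61 with mitochondrial and ribosomal genes left out of the total, 1.46 with the mean over cells, 1.503 in cells thinned to 5000 UMIs and 1.63 without the 3 most abundant members. For C1-sgEED over C1-sgControl, both KRT17-rich it was 1.53 without a cell filter, 1.54 with the strict cell filter, 1.57 with the mean over cells, 1.70 in cells thinned to 5000 UMIs, 1.60 without the 5% largest cells, 1.74 with classes of a VIM share under 0.2 or over 0.8, 1.54 with the split by marker lists and 1.58 without the 3 most abundant members. For C1-sgKMT2D over C1-sgControl, both KRT17-rich it was 1.46 without a cell filter, 1.52 with the strict cell filter, 1.48 with mitochondrial and ribosomal genes left out of the total, 1.34 in cells thinned to 5000 UMIs, 1.40 without the 5% largest cells, 1.33 with classes of a VIM share under 0.2 or over 0.8, 1.51 with the split by marker lists and 1.53 without the 3 most abundant members. For C1-sgKMT2D over C1-sgEED, both VIM-rich it was 0.840 with the strict cell filter, 0.858 with mitochondrial and ribosomal genes left out of the total, 0.673 with the mean over cells, 0.683 in cells thinned to 5000 UMIs, 0.712 without the 5% largest cells, 0.680 with classes of a VIM share under 0.2 or over 0.8, 0.722 with the split by marker lists and 0.804 without the 3 most abundant members. For C1-sgKMT2D VIM-rich over KRT17-rich it was 1.36 with the strict cell filter, 1.35 with mitochondrial and ribosomal genes left out of the total, 1.16 with the mean over cells, 1.52 in cells thinned to 5000 UMIs, 1.35 without the 5% largest cells, 1.78 with classes of a VIM share under 0.2 or over 0.8 and 1.11 with the split by marker lists. For C1-sgEED VIM-rich over KRT17-rich it was 1.57 with mitochondrial and ribosomal genes left out of the total, 1.57 with the mean over cells, 1.75 in cells thinned to 5000 UMIs, 1.66 without the 5% largest cells, 1.99 with classes of a VIM share under 0.2 or over 0.8, 1.51 with the split by marker lists and 1.58 without the 3 most abundant members. Without TUBB4B the spindle sum over C1-sgControl was 1.80 for C1-sgEED and 1.61 for C1-sgKMT2D, and 1.42 and 1.48 among KRT17-rich cells.

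The number of members past the bound moved by over 1.5 times in 17 of 94 cases. No share of all genes is given for these alternatives, so the counts below have no background. For C1-sgKMT2D VIM-rich over KRT17-rich it became 11 with the strict cell filter, 2 with the mean over cells, 23 in cells thinned to 5000 UMIs, 35 with classes of a VIM share under 0.2 or over 0.8, 1 with the split by marker lists, 4 at a minimum of 50 CPM, 29 at the lower fold bound and 0 at 2-fold. For C1-sgEED over C1-sgControl it became 17 at 2-fold. For C1-sgKMT2D over C1-sgControl it became 20 at a minimum of 50 CPM and 5 at 2-fold. For C1-sgEED over C1-sgControl, both KRT17-rich it became 16 at a minimum of 50 CPM and 7 at 2-fold. For C1-sgKMT2D over C1-sgControl, both KRT17-rich it became 15 at a minimum of 50 CPM, 37 at the lower fold bound and 3 at 2-fold. For C1-sgEED VIM-rich over KRT17-rich it became 9 at 2-fold.

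Member-rich shares moved beyond their interval in 19 of 45 cases. In C1-sgKMT2D KRT17-rich cells it was 13.4% with the strict cell filter, 4.75% with classes of a VIM share under 0.2 or over 0.8, 20.8% at a bound of 10 UMIs and 2.06% at a bound of 40 UMIs. In C1-sgKMT2D VIM-rich cells it was 17.9% with the strict cell filter, 23.4% in cells thinned to 5000 UMIs, 12.4% with classes of a VIM share under 0.2 or over 0.8, 23.9% at a bound of 10 UMIs and 3.46% at a bound of 40 UMIs. In C1-sgEED KRT17-rich cells it was 18.4% in cells thinned to 5000 UMIs, 10.1% with classes of a VIM share under 0.2 or over 0.8, 28.5% at a bound of 10 UMIs and 0.946% at a bound of 40 UMIs. In C1-sgEED VIM-rich cells it was 37.1% in cells thinned to 5000 UMIs, 44.5% at a bound of 10 UMIs and 3.31% at a bound of 40 UMIs. In C1-sgControl KRT17-rich cells it was 4.03% with classes of a VIM share under 0.2 or over 0.8, 15.8% at a bound of 10 UMIs and 0.449% at a bound of 40 UMIs. With a VIM share under 0.2, the KRT17-rich shares were thus 4.03% in C1-sgControl, 4.75% in C1-sgKMT2D and 10.1% in C1-sgEED.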

Other observations

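The 1934 cells with hashtag 2, which the labels tie to no line, are given as values only. Their 47 genes summed to 3989 CPM (3952 to 4026), with 3177 CPM in 580 KRT17-rich and 4441 CPM in 1319 VIM-rich cells, a ratio of 1.40 (1.37 to 1.43). Between these classes CDCA3 had the highest VIM-rich ratio and CKAP5, a microtubule polymerase, the lowest. CCNB1 stood at 203 CPM, CDK1 at 121 CPM, PLK1 at 50.4 CPM and MKI67 at 101 CPM over all hashtag 2 cells. Member-rich cells were 11.4% (10.0 to 13.0) of 1856 thinned cells, 8.21% in the KRT17-rich and 12.7% in the VIM-rich class. As in the 3 lines, KRT17 was lower in member-rich than in other hashtag 2 cells, at 1363 and 2457 CPM.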
